A study of Mus musculus with 8 samples.

Results

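The Hey and Hes repressor family was followed in 8 genes: Hey1, Hey2, Heyl, Hes1, Hes5, Hes6, Bhlhe40 and Bhlhe41. They were chosen by gene name, not by measured values, as all probe sets of the array whose annotation gives exactly 1 symbol and that symbol is one of the 8. This gave 13 probe sets among 34945 with a single symbol, which stand for 18193 genes. Of the 13 probe sets, 8 exceeded the log2 level of 5 in at least 4 arrays, whichever group these belonged to, and were tested among the 16017 probe sets that did so. The other 5 are reported as below that level: both of Hes5, both of Bhlhe41 and 1 of the 3 of Heyl.

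The samples were ventricles of male mice of the FVB strain, 8 to 12 weeks old, 1 array to a mouse, and all 8 mice had been operated to narrow the ascending aorta 1 week earlier. In 4 of them a transgene drove CHF1/Hey2 in heart muscle from the mlc2v promoter, that of a ventricular myosin light chain, and 4 were wild type. Unbanded hearts were not analysed here, so both groups share the pressure load. The labels do not say whether the transgenic mice descend from a single founder, and the ventricle holds heart muscle cells together with vessel, connective tissue and immune cells. The 7 cardiomyocyte markers were all above a log2 value of 5, with a mean level between 14.71 and 15.23 in every array.

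These genes encode basic helix-loop-helix proteins that bind DNA as dimers and repress transcription through corepressors. Many are switched on when a Notch receptor, cut after binding its ligand, joins the DNA-binding protein Rbpj at their promoters. Hey2 is best known in the heart for keeping the ventricular muscle program apart from the atrial one and for the compact wall of the ventricle, while Hey1 and Heyl are also made by cells of the vessel wall. Hes1 and Hes5 are widely used as readouts of Notch activity, and Hes6 is a relative that can oppose Hes1. Bhlhe40 and Bhlhe41, also called Dec1 and Dec2, repress E-box genes of the circadian clock.

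The promoter of the endogenous Hey2 gene is shown because the transgene is driven from another one, those of Hes5 and Bhlhe41 because their probe sets stayed below the log2 level of 5. The windows hold 250 bases before and 50 after the annotated start, come from RefSeq on build GRCm38.p6 of the C57BL/6J strain, and exist in the table used here for 4 of the 8 genes (Hey2, Hes5, Hes6 and Bhlhe41). They lie at chr10:30842734-30843033 on the minus strand for Hey2, at chr4:154960673-154960972 on the plus strand for Hes5 and at chr6:145865371-145865670 on the minus strand for Bhlhe41. Capitals mark the Rbpj core TGGGAA and the E-boxes CACGTG and CACGCG, each searched on both strands. No marked motif overlaps another.
Hey2: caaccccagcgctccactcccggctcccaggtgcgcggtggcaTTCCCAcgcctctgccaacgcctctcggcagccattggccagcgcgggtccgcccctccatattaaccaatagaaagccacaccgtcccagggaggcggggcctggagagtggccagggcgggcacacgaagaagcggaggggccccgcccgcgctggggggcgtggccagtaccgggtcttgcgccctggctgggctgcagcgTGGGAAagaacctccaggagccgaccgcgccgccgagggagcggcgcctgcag
Hes5: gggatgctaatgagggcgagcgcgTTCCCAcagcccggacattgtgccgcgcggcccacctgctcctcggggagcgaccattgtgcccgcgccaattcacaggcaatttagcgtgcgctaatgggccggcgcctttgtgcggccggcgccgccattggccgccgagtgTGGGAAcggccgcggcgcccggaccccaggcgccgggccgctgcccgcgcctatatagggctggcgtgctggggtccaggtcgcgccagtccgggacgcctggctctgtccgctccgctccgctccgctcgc
Bhlhe41: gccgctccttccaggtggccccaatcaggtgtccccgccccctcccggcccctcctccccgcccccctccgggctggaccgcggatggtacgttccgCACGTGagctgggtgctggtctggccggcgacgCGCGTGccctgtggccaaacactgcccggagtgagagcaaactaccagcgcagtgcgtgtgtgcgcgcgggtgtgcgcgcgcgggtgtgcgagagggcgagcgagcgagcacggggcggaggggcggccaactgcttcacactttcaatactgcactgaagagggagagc

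Hey2 and Hes5 each carry TGGGAA at 2 places. In Hey2 these begin 207 and 3 bases before the start, and in Hes5 226 and 82 bases before it. The Bhlhe41 window holds 1 CACGTG, beginning 153 bases before the start, and 1 CACGCG, and neither of the 2 Hes6 windows holds any of the 3 motifs. Of all 32851 windows of this length, 25.6% hold TGGGAA, 7.15% hold CACGTG and 9.27% hold CACGCG. A match is a run of letters and not evidence of binding.

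Transgenic replicates 2 and 3 stood apart from the other 6 arrays, replicate 2 by more, which touches every value given here. Transgenic replicate 2 lay over 1 log2 unit from the median of the other 7 arrays at 6322 of 16017 probe sets (39.5%), and transgenic replicate 3 at 1403 (8.76%). In the other 6 arrays the share was between 0.893% and 2.68%. None of the 16017 probe sets tested passed at a limma adjusted p of 0.05, with 0 higher (0.0%) and 0 lower (0.0%) in the arrays labelled transgenic. The smallest limma adjusted p was 0.830. Without adjustment 206 probe sets (1.29%) had a limma p under 0.05, 136 of them higher (0.849%) and 70 lower (0.437%). By an unequal-variance test 207 did, and 0 after adjustment. This background count moved with the arrays used: it was 325 (2.03%) without transgenic replicate 2, between 52 (without wild-type replicate 3) and 815 (without transgenic replicate 4) when other single arrays were left out, and 2302 (14.4%) with array weights, which scale each array by its agreement with the fit. The 95% confidence interval extended a median of 0.638 log2 units above and below the estimate.

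No member of the family passed either. Hey1 was the 1 member of 8 tested probe sets with an unadjusted limma p under 0.05, in the higher direction, beside the background of 0.849%. That count was 0 without transgenic replicate 2 and 0 with array weights. In 0 of the 8 did the transgenic and wild-type values separate without overlap, against 2.11% of all probe sets. The transgenic mean was higher in 6 and lower in 2, with a median difference of 0.28 on the log2 scale. Over all probe sets tested 53.5% were higher, with a median of 0.032. Without transgenic replicate 2, 3 members were higher and 5 lower, with a median of -0.019, beside 0.026 over all probe sets tested.

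**Figure D1:**
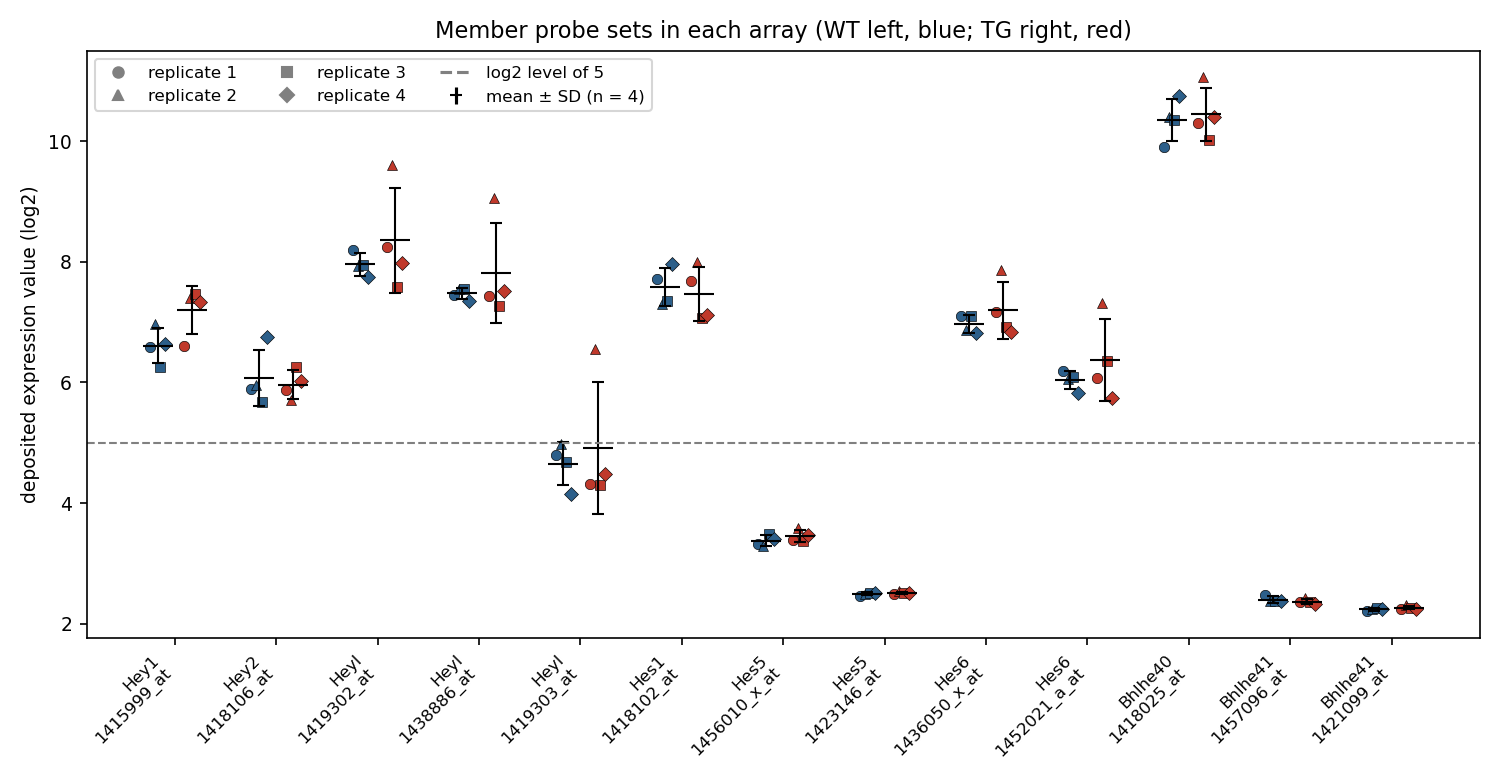
Deposited log2 expression values of the 13 member probe sets in 8 arrays, with wild type in blue and transgenic in red, the replicate number as marker shape, and mean ± SD (n = 4) in black. The Hes5 and Bhlhe41 probe sets lie between 2.21 and 3.59, below the dashed level of 5, and the triangle of transgenic replicate 2 stands above the other transgenic arrays for Heyl.

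Hey2, the gene carried by the transgene, showed no rise with the transgenic label. Its single probe set read 5.87, 5.70, 6.26 and 6.02 (log2) in transgenic replicates 1 to 4 and 5.89, 5.96, 5.68 and 6.76 in wild-type replicates 1 to 4. The groups overlapped, and a wild-type array, replicate 4, held the highest value of the 8. Transgenic arrays averaged 5.96 ± 0.24 and wild-type arrays 6.07 ± 0.47 (SD, n = 4 each), so the transgenic mean was 0.927 times the wild-type one, with a 95% confidence interval of 0.615 to 1.40 times. The difference of -0.11 on the log2 scale was smaller than the SD of either group (limma adjusted p = 0.889; exact two-sided permutation p = 0.771, where 0.0286 is the smallest possible). It was 0.12 without wild-type replicate 4. The sequence of the transgene was not used here, so whether this probe set can read its transcript is unknown. The values therefore do not check the group labels, and directions below are those of arrays as labelled.

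Hey1, the closest relative of Hey2 and a repressor made in endothelium and atrial muscle, had the largest mean difference of the tested members. It read 6.61, 7.40, 7.47 and 7.33 in transgenic replicates 1 to 4 and 6.59, 6.97, 6.26 and 6.63 in wild-type replicates 1 to 4. Transgenic replicates 2, 3 and 4 lay above all 4 wild-type arrays, while transgenic replicate 1 lay among them. Transgenic arrays averaged 7.20 ± 0.40 and wild-type arrays 6.61 ± 0.29 (SD, n = 4 each). They differed by 0.59 on the log2 scale, or 1.50-fold, with a 95% confidence interval of 1.02 to 2.23-fold.

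The Hey1 difference did not pass after adjustment (unadjusted limma p = 0.0433, adjusted p = 0.830; exact two-sided permutation p = 0.0857). In 11 of 20 alternative fits its unadjusted p was 0.05 or more, and over the 20 it ran from 0.0074 without transgenic replicate 1 to 0.436 with array weights. Without transgenic replicate 2 the Hey1 difference was 0.52 on the log2 scale. The other 5 probe sets with a higher transgenic mean then lay between -0.11 and 0.017. With array weights, which give transgenic replicate 1 the largest weight of the 8 arrays, the Hey1 difference was 0.16. Without transgenic replicates 2 and 3 the difference was 0.36. Beside Hey1, all 7 endothelial markers had higher transgenic means, as did 57.0% of all genes, with a median difference of 0.29. Without transgenic replicate 2, 6 were higher and 1 lower, with a median of 0.074, beside 0.026 over all genes. The endothelial median lay 0.18, 0.80, 0.060 and 0.052 above the wild-type mean in transgenic replicates 1 to 4, and Hey1 lay at -0.0053, 0.79, 0.86 and 0.72 from its own. The median of the 4 atrial markers lay 0.081, 0.84, 0.66 and 0.70 above the wild-type mean in these arrays and at 0.41, -0.35, -0.23 and 0.12 in wild-type replicates 1 to 4, so like Hey1 it was higher in transgenic replicates 2, 3 and 4 than in any wild-type array. Of these markers Myl7, Myl4 and Sln had higher transgenic means, by 0.71, 0.67 and 0.64. Sln did not follow the pattern of the median, as wild-type replicate 1, at 9.89, lay above all transgenic arrays. In Myl4 transgenic replicate 3, at 11.31, barely exceeded wild-type replicate 1, at 11.30. Nppa, the atrial natriuretic peptide gene, read 15.08, 15.02, 12.96 and 15.17 in transgenic arrays and 14.94, 14.66, 15.13 and 15.25 in wild-type arrays. Its difference of -0.44 came from transgenic replicate 3 and was 0.094 without it. The mean level of the 4 ranged from 11.31 to 11.95 in transgenic and from 10.94 to 11.65 in wild-type arrays. The part of endothelial cells and of atrial tissue in the Hey1 difference was not tested.

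Heyl, a family member of vascular smooth muscle and pericytes, stood out in 1 array. Its probe set 1419302_at read 8.25, 9.60, 7.59 and 7.99 in transgenic replicates 1 to 4 and 8.20, 7.92, 7.95 and 7.76 in wild-type replicates 1 to 4. Probe set 1438886_at read 7.43, 9.06, 7.27 and 7.52 against 7.45, 7.55, 7.55 and 7.35. Probe set 1419303_at, below the level of 5 in 7 of the 8 arrays, read 6.56 in transgenic replicate 2 and between 4.15 and 4.98 elsewhere. All 3 probe sets of Heyl were thus highest in transgenic replicate 2, and in the other 7 arrays the groups overlapped.

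The differences of the 2 tested Heyl probe sets were 0.40 (95% confidence interval -0.51 to 1.31) and 0.34 (-0.52 to 1.20) on the log2 scale (limma adjusted p = 0.830 each). Without transgenic replicate 2 they were -0.016 and -0.070, with intervals of -0.45 to 0.41 and -0.34 to 0.20. The spread followed the same array: the transgenic SD of 1438886_at was 0.83 with replicate 2 and 0.13 without it, next to a wild-type SD of 0.10. In bulk ventricle, more cells of a type and more RNA per cell cannot be told apart.

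**Figure D2:**
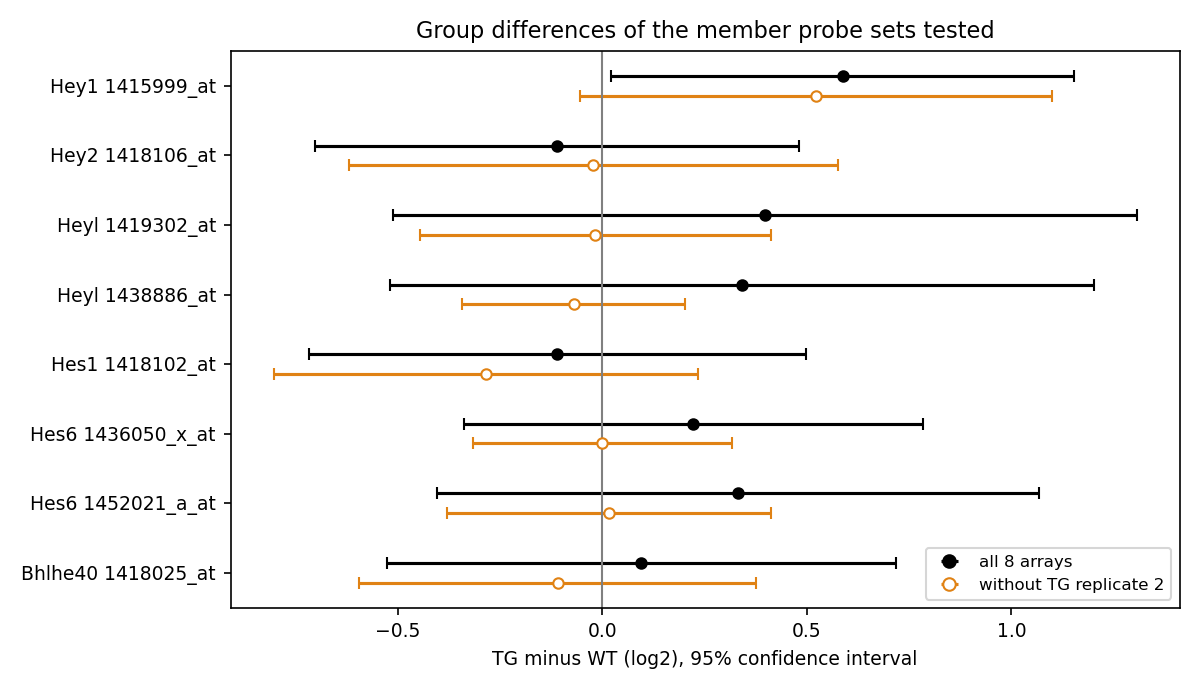
Transgenic minus wild-type difference (log2) of the 8 tested member probe sets with 95% confidence intervals, from all 8 arrays (black) and without transgenic replicate 2 (orange). Without that array both Heyl probe sets moved from 0.40 and 0.34 to -0.016 and -0.070, while Hey1 moved from 0.59 to 0.52.

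Hes1, a repressor induced by Notch and many other signals, differed by less than its spread. It read 7.68, 7.99, 7.08 and 7.12 in transgenic replicates 1 to 4 and 7.71, 7.29, 7.34 and 7.97 in wild-type replicates 1 to 4. Transgenic replicates 3 and 4 were the lowest arrays and replicate 2 the highest, so the wild-type range lay inside the transgenic one. Transgenic arrays averaged 7.47 ± 0.44 and wild-type arrays 7.58 ± 0.32 (SD, n = 4 each) and differed by -0.11, with a 95% confidence interval of -0.72 to 0.50 (limma adjusted p = 0.891). It was -0.28 without transgenic replicate 2. Its sign turned without transgenic replicate 3 (0.021), transgenic replicate 4 (0.0051) or wild-type replicate 4 (0.020).

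Hes6 was read by 2 probe sets that again stood out in transgenic replicate 2. Probe set 1436050_x_at gave 7.16, 7.86, 6.93 and 6.83 in transgenic replicates 1 to 4 and 7.09, 6.87, 7.10 and 6.82 in wild-type replicates 1 to 4. Probe set 1452021_a_at gave 6.07, 7.32, 6.36 and 5.74 against 6.18, 6.06, 6.09 and 5.83. Apart from transgenic replicate 2 the groups overlapped in both. The differences were 0.22 (95% confidence interval -0.34 to 0.78) and 0.33 (-0.40 to 1.07), with a limma adjusted p of 0.830 each. When transgenic replicate 2 was left out, the first was 0.00072 and the second 0.017.

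Hes5, the Notch target most used in the nervous system, was below the log2 level of 5 in every array. Its 2 probe sets ranged from 2.47 to 2.54 and from 3.29 to 3.59. GCRMA, the method behind these values, pulls unexpressed probe sets together at the bottom of the scale, so no difference is read from them.

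Bhlhe40 was the clock-linked repressor with a measurable value. It read 10.31, 11.06, 10.01 and 10.40 in transgenic replicates 1 to 4 and 9.90, 10.39, 10.35 and 10.75 in wild-type replicates 1 to 4. The highest array was transgenic replicate 2 and the lowest wild-type replicate 1, and the groups overlapped. Transgenic arrays averaged 10.44 ± 0.44 and wild-type arrays 10.35 ± 0.35 (SD, n = 4 each) and differed by 0.096, with a 95% confidence interval of -0.53 to 0.72 (limma adjusted p = 0.906). Leaving out transgenic replicate 2 gave -0.11, and leaving out wild-type replicate 1 gave -0.055. Bhlhe41, its partner in the clock, had 2 probe sets between 2.21 and 2.48 in all arrays, below the level of 5.

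Transgenic replicate 2 held the highest value of the 8 arrays in 6 of the 8 tested member probe sets, namely both of Heyl, both of Hes6, Hes1 and Bhlhe40, and the corresponding share over all probe sets was 42.6%. It lay over 1 log2 unit above the median of the other 7 arrays in 3 of the 8, against 16.0% of all probe sets. Those 3 were the probe sets of Heyl and 1452021_a_at of Hes6. In the same array the median of the smooth muscle and pericyte markers was 0.98 above the wild-type mean and that of the endothelial markers 0.80 above it. Other markers and lists moved there as well. The medians of the lists treated below lay at 0.68 for the Notch pathway, 0.47 for corepressors and 0.46 for helix-loop-helix partners. For the genes linked to Hey2 in the literature the median was at 0.35 and for clock genes at -0.22. The macrophage median was 0.75 above the wild-type mean. Alas2, the 1 erythroid marker tested, lay 1.23 above its own, but it varied widely, at 1.28 in transgenic replicate 3 and -1.68 in transgenic replicate 4. The cardiomyocyte median was at -0.23, with its lowest mean level of the 8 arrays, 14.71 against 15.11 or more elsewhere. The mean level of all 7 smooth muscle and pericyte markers ranged from 9.90 to 11.20 across transgenic arrays and from 10.52 to 10.78 across wild-type arrays. That of the 7 endothelial markers ranged from 9.28 to 9.86 and from 9.05 to 9.61. The smooth muscle list did not move as one in that array, since Acta2 was 13.64 against a wild-type mean of 12.56 and Rgs5, a pericyte gene, 11.69 against 13.31. The part of any of these cells in the Heyl and Hes6 values was not tested.

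**Figure D3:**
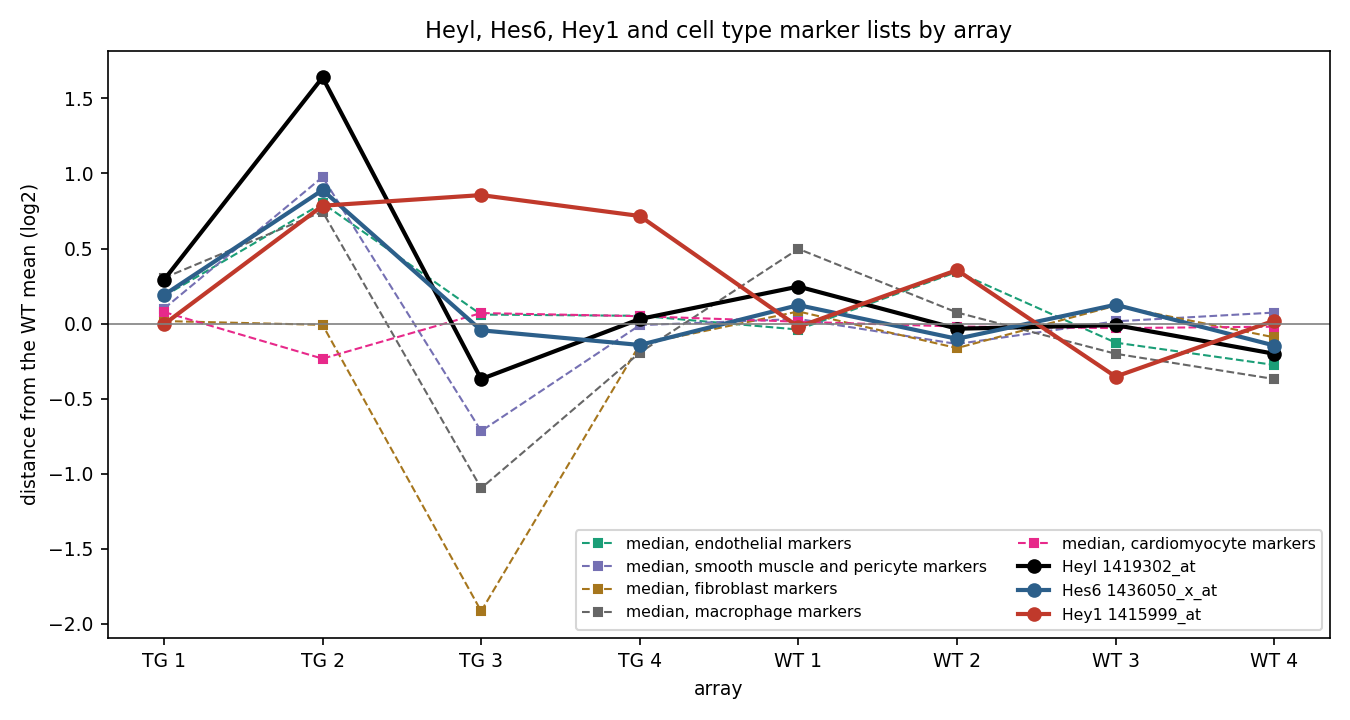
Distance from the wild-type mean (log2) in each array for Heyl, Hes6 and Hey1 (solid lines) and for the median of 5 cell type marker lists (dashed lines). Heyl, at 1.64, and Hes6, at 0.89, peak in transgenic replicate 2, as do smooth muscle, endothelial and macrophage markers. The medians of the Notch pathway, corepressor and helix-loop-helix partner lists, not drawn, were also highest in that array. Hey1 lies at 0.72 or more in transgenic replicates 2, 3 and 4, and fibroblast markers lie at -1.92 in transgenic replicate 3.

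Whether the relatives moved apart from Hey2 was tested within arrays, as the log2 value of a relative minus that of Hey2, which leaves the unknown offset between probe sets out of the group difference. Of the 5 relatives compared, Hey1 had the largest value. Hey1 minus Hey2 differed by 0.70 between transgenic and wild-type arrays (95% confidence interval -0.062 to 1.46; exact two-sided permutation p = 0.0571, not adjusted for the 5 comparisons). Centred on its wild-type mean, transgenic replicate 1 lay below wild-type replicate 2. Without wild-type replicate 4, the array with the highest Hey2, the difference was 0.48 (-0.19 to 1.14), and without transgenic replicate 2 it was 0.54 (-0.28 to 1.37). Without transgenic replicate 4 it was 0.67, and leaving out any of the remaining arrays raised it. The largest values were 0.87 (0.072 to 1.66) without transgenic replicate 1 and 0.85 (0.037 to 1.67) without wild-type replicate 2. With either array left out, all transgenic values lay above all wild-type values. The exact two-sided permutation p was 0.0571 in both, the lowest it can be for these arrays with transgenic values higher. It therefore cannot show whether the groups differed more clearly than over all arrays.

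The other 4 relatives had smaller differences from Hey2, and for none of the 5 did the interval over all 8 arrays exclude 0. Heyl minus Hey2 differed by 0.51 (95% confidence interval -1.02 to 2.04; exact permutation p = 0.429), Hes6 minus Hey2 by 0.33 (-0.76 to 1.43; exact permutation p = 0.543) and Bhlhe40 minus Hey2 by 0.21 (-0.70 to 1.11; exact permutation p = 0.657). For Hes1 the interval ran from -0.89 to 0.89 (exact permutation p = 1.00). Leaving out transgenic replicate 2 gave 0.0059 for Heyl, 0.023 for Hes6, -0.086 for Bhlhe40 and -0.26 for Hes1. These intervals are wide enough to hold a doubling for Heyl, Hes6 and Bhlhe40, so the values do not show that they moved as Hey2 did.

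**Figure D4:**
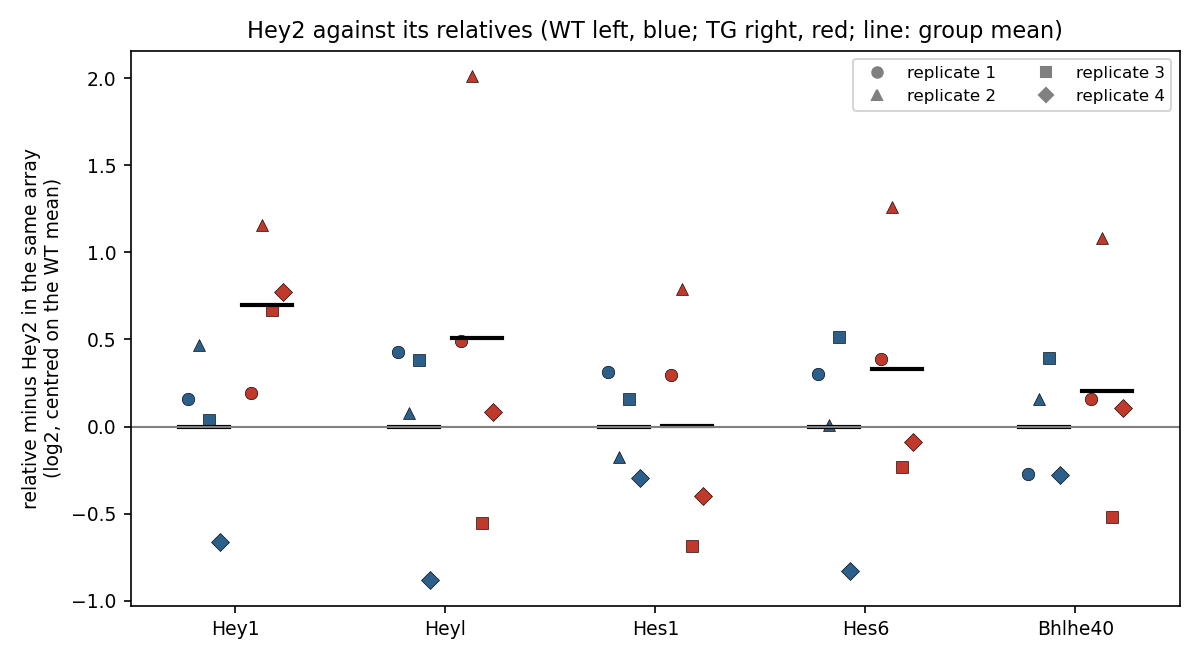
Log2 value of each of 5 relatives minus that of Hey2 in the same array, centred on the wild-type mean, with group means as lines, wild type in blue and transgenic in red. The transgenic mean of Hey1 lies 0.70 above the wild-type mean, with transgenic replicate 1 inside the wild-type range, and transgenic replicate 2 is the highest transgenic point of every relative.

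The genes whose values tracked these repressors most closely over the 8 arrays were others than their relatives. Among 9606 genes, taken with 1 probe set each, Pias2, a SUMO ligase, Mdh1, cytosolic malate dehydrogenase, and Seh1l, a nuclear pore protein, were most like Hey2, with Pearson r of 0.89, 0.86 and 0.82. Lmtk2, a kinase, Trim54, a ubiquitin ligase of striated muscle, and Dffa, the inhibitor of the apoptotic DNase, were most like Hey1, with r of 0.97, 0.95 and 0.94. Without transgenic replicate 2 the r values of these 6 were between 0.86 and 0.97. The 8 points share their arrays and normalization, and the genes are the highest of many, so these values only describe likeness.

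The Notch pathway around the family showed no member past the threshold. Of 32 listed genes 26 were measured above the level, 16 with a higher and 10 with a lower transgenic mean, with a median difference of 0.068, while over all 9607 genes taken with 1 probe set each 57.0% were higher and the median was 0.061. None had an unadjusted limma p under 0.05, beside 1.46% of genes. Those with the smallest p were Rfng and Mfng, enzymes that extend sugars on Notch, at 0.39 (SE 0.20) and 0.52 (SE 0.33), Adam10, a protease that cleaves Notch, at -0.68 (SE 0.41), and Dll4, an endothelial ligand, at 0.61 (SE 0.39). With transgenic replicate 2 left out they differed by 0.24, 0.20, -0.28 and 0.33, and the list had 12 higher and 14 lower with a median of -0.045.

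Of 22 listed symbols of corepressors and genes linked to them, 18 were measured. Aes, counted among those not measured, is an older symbol of Tle5. Of the 18 genes, 12 were higher and 6 lower, with a median difference of 0.13, or 0.011 without transgenic replicate 2. None of the 18 had an unadjusted limma p under 0.05. Tle5, a short Groucho-related protein, differed by 0.27 (SE 0.15), and its 4 transgenic values all lay above its 4 wild-type values, as the values of 2.11% of all probe sets separated in one direction or the other. Hdac3 differed by 0.43, Cir1 by -0.56 and Stub1, a ubiquitin ligase, by 0.22, or by 0.15, -0.16 and 0.10 without transgenic replicate 2. Among 14 of 23 listed helix-loop-helix partners and relatives, 9 were higher and 5 lower, with a median of 0.080, or 0.0071 without transgenic replicate 2. Hif1a, the oxygen-regulated subunit, differed by -0.72 and Tcf4, an E protein, by -0.74, and transgenic replicate 2 held the lowest value of each, 9.40 and 9.22. Without that array they differed by -0.38 and -0.26. Mycn and Id2 differed by 0.34 and 0.42, or by 0.26 and 0.13 without that array.

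A further list held genes named in the literature as repressed by or bound to CHF1/Hey2, or as near it, in heart and vessel. Its genes are therefore not all targets. Of 23 listed, 19 were measured, with 10 higher, 9 lower and a median difference of 0.025. Over all genes 57.0% were higher, with a median of 0.061. Over the 7 arrays that remain without transgenic replicate 2, 14 were higher and 5 lower, with a median of 0.083. The median over all genes was 0.026 in that fit, and the share of all genes that were higher is not given here. The 1 gene with an unadjusted limma p under 0.05 was Myl7, the atrial myosin light chain, at 0.71 (SE 0.22), beside 1.46% of all genes. It read 10.42, 10.92, 11.21 and 10.77 in transgenic replicates 1 to 4 and 10.47, 10.07, 9.90 and 10.02 in wild-type replicates 1 to 4. As with Hey1, transgenic replicates 2, 3 and 4 lay above all wild-type arrays and replicate 1 did not. Kcnip2, a potassium channel subunit, differed by 0.26 without overlap between the groups, as seen for 2.11% of all probe sets, Tbx5 by 0.56 and Gata4 by 0.49. Tbx5 differed by 0.27 without transgenic replicate 2. None passed (limma adjusted p = 0.830 for each gene of this paragraph).

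Clock genes, among which Bhlhe40 acts, were lower in 10 and higher in 6 of the 16 measured of 19 listed, with a median difference of -0.16. Leaving out transgenic replicate 2, the count was 8 each way and the median 0.026. Clock differed by -0.44, Rora by -0.50, Nr1d2 by -0.80 and Tef by 0.18. Nr1d2, a repressor of the same loop, had its lowest value, 9.41, in transgenic replicate 2, while the other 7 arrays lay between 12.22 and 12.79, and it differed by -0.042 without it. The difference of Clock without that array was -0.14 and that of Rora -0.11. The sources used here do not give the hour at which the hearts were taken.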

How the data were processed

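Ventricular RNA of 8 banded mice was hybridised to Affymetrix Mouse Genome 430 2.0 arrays, per the labels' protocols. Values were deposited as log2 expression per probe set. The submitters' processing notes name GCRMA without a version; it corrects background by base composition, normalizes by quantiles and summarizes probes. The deposited log2 values ran from 0.837 to 16.11, with array medians between 3.33 and 3.43. With arrays, precision is limited by their number. Since nothing in the labels says more on how replicates arose than 1 array a mouse, p-values measure the spread between these arrays.

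Groups came from the sample titles. Of 45101 probe sets, 64 controls, 932 with several symbols and 9160 without one were left out. Entrez identifiers matched 34741 and changed 0 symbols. Transgenic minus wild type was fitted by lmFit and eBayes (limma 3.58.1, R 4.3.3) over the 16017 probe sets above log2 5 in at least 4 arrays. Benjamini-Hochberg adjustment was used at 0.05. The code was checked for recovery of set differences on simulated data with independent noise. That simulation held no array standing apart, so it does not measure error rates in these data. Probe sets below that level got intervals only in a fit without filter. Exact permutation tests used scipy 1.17.1.

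The members, the lists and the tests were chosen with earlier results of these data known. Named were every member probe set, the up to 4 list genes with the smallest p, and the 3 genes most like Hey2 and Hey1. For lists, each gene was read by its probe set with the highest mean, as were the relatives compared with Hey2. Alternatives changed the filter, normalization, model, probe set rule, test, threshold and the arrays used.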

Additional observations from a re-analysis of the deposited data

Results flagged for a closer look

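Of 26 sets of 4 arrays (13 probe sets in each group), 5 held an array whose gap to the nearest of the others exceeded Dixon's 95% critical share of the whole range, where chance gives about 1 in 20. Transgenic replicate 1 stood below the other 3 transgenic arrays for Hey1, with 0.838 of the range. Transgenic replicate 2 stood above the others for Heyl probe set 1438886_at with 0.862 and for 1419303_at with 0.924. The remaining pair, both of Bhlhe41 below the log2 level of 5, were 1457096_at in wild-type replicate 1, with 0.935, and 1421099_at in transgenic replicate 2, with 0.912. The ranges of these last probe sets were so narrow (all values between 2.21 and 2.48) that the gaps carry no reading.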

How the results depend on the processing

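At an adjusted p of 0.05, 0 probe sets passed in either direction in every alternative fit, and 0 at 0.1 in the fit of all 8 arrays. The smallest adjusted p of the alternatives was 0.0984, with array weights. There 1 probe set was higher at 0.1, that of Inmt (0.97), a setting and a gene chosen after their values were seen. The 8 tested member probe sets gave limma adjusted p between 0.368 and 1.00 over 160 combinations of a member probe set and an alternative setting. Signs turned as follows. Leaving out single arrays, Hey2 ranged from -0.24 to 0.12, Heyl 1419302_at from -0.016 to 0.65, Heyl 1438886_at from -0.070 to 0.53, Hes1 from -0.28 to 0.021 and Bhlhe40 from -0.11 to 0.24. Hes1 minus Hey2 ranged from -0.26 to 0.23 and Bhlhe40 minus Hey2 from -0.086 to 0.45. With array weights Heyl 1438886_at was -0.0050 and Bhlhe40 -0.16. Without transgenic replicates 2 and 3, Heyl 1438886_at was -0.0020, Hes6 1452021_a_at -0.13 and Hes1 minus Hey2 -0.050. Quantile normalization gave -0.081 for Hes1 minus Hey2. For the turns under array weights the cause was not tested. Hey1 kept its sign in all alternatives, between 0.16 and 0.79. The replicate block left Hey2 at -0.11 and Hey1 at 0.59 (limma adjusted p = 0.911 and 0.856) and changed no call. Deviations of same-numbered arrays from their group means correlated with r of 0.30, 0.0033, -0.34 and 0.22. These values do not settle whether the numbers pair the mice, and the labels do not say.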
